A study of Mus musculus with 4 samples.

Results

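Proteins that are secreted or stored in granules fold in the endoplasmic reticulum (ER), and 10 genes of that process were read on 4 mouse microarrays. They were chosen by symbol, through the platform's annotation of the probe sets. The chaperone genes were Hspa5, Hsp90b1, Calr and Canx. The genes of disulfide formation and exchange were Pdia3, Pdia4, Pdia6 and Prdx4, and the stress factor genes were Xbp1 and Ddit3. All 10 had a probe set, 10 of 12393 named genes, and together they had 23 of 22690 probe sets. Of these 23, 19 were above the floor on all 4 arrays, 2 on some arrays and 2 on none. The floor was a log2 value of 5.18, the 40th percentile of all values, below which values are given but no fold is drawn.

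Each array held RNA of 1 sorted bone marrow population from untreated C57BL/6 mice, 8 weeks old and backcrossed for at least 10 generations. Gfi1 is a transcriptional repressor of blood cell development, and in these mice its locus carries a knocked-in green fluorescent protein (GFP) reporter. Gfi1-deficient monocytes were CD11b+, Gr1-low cells of the genotype GFP:Gfi1 KI/KI, sorted with no GFP gate named. GFP-high and GFP-low cells were CD11b+, Gr1-low fractions of GFP:Gfi1 KI/WT mice, and granulocytes were CD11b+, Gr1-high cells of the same genotype. Every mouse therefore carried the knock-in on at least 1 allele, no wild-type sample was used here, and the labels do not say how many animals gave each RNA. Genotype and sort differ together wherever Gfi1-deficient cells are compared. The X-linked Xist differs with them, at 5.80 on that array against 9.56 to 10.93 on the others. The series addresses how Gfi1 governs the choice between monocyte and granulocyte fate.

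Hspa5 encodes the Hsp70-type chaperone of the ER lumen and Hsp90b1 its Hsp90-type partner. Calreticulin (Calr) and calnexin (Canx) hold newly made glycoproteins, among them the precursor of myeloperoxidase, and pass them to the disulfide isomerase encoded by Pdia3. Unfolded protein activates sensors in the ER membrane, through which the transcription factors XBP1 and ATF6 raise chaperone genes, while the kinase PERK acts through ATF4 on genes such as Ddit3. Neutrophil precursors fill their primary granules with folded proteases and peroxidase early and stop making them as they mature.

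Chaperone genes respond to ER stress through a promoter element named ERSE, with the letters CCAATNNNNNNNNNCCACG. It was searched on both strands in the 250 bases before the RefSeq transcription start, in windows of the build GRCm38.p6. All 10 genes had a window, and 5 of the 10 held the element, against 37 of 32851 windows in all (0.113%). The matches are shown because they divide the genes into those with and those without the element. Each is printed 5′ to 3′ on the gene's own strand, with 20 bases on either side and the element in capitals. A match describes letters in this window and not a bound site.
Hspa5 (chr2:34772005-34772063, + strand): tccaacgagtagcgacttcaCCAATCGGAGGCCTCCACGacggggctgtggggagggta
Hsp90b1, farther match (chr10:86705618-86705676, - strand): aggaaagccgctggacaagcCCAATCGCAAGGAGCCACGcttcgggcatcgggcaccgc
Hsp90b1, nearer match (chr10:86705513-86705571, - strand): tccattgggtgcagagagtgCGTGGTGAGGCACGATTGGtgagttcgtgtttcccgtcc
Calr (chr8:84847055-84847113, - strand): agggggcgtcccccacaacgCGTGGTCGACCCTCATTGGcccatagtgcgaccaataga
Canx (chr11:50325780-50325838, - strand): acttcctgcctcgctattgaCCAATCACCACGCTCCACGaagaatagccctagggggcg
Pdia6 (chr12:17266471-17266529, + strand): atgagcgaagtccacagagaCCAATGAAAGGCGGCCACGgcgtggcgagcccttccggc
In Hspa5 the element ran from position -65 to -47 before the start site, and in Pdia6 from -98 to -80. The nearer match of Hsp90b1 and that of Calr read on the opposite strand, so that the capitals there end in the reversed box. Hsp90b1 was the gene with 2 matches, which overlap no other match of the element.

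The windows of Pdia3, Pdia4, Prdx4, Xbp1 and Ddit3 held no exact match. Prdx4, which departs furthest from the other genes below, held the end of the element, CCACG, on both strands in 1 overlapping run, shown in capitals.
Prdx4 (chrX:155338486-155338533, - strand): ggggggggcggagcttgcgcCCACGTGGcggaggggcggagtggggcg
The letters CCACG alone are common, with a match in 28.3% of all windows and in 6 of the 10. Of the 110 windows of other ER genes listed here, 5 held the full element (4.55%). The box CCAAT alone, the other end, had a match in 33.8% of all windows and in 9 of the 10. No window of the 10 genes held the further stress motifs TGACGTGG, TGATGNAA or ATTGGNCCACG, which were found in 0.563%, 3.45% and 0.0304% of all windows.

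The granulocyte array gave the lowest value of the 4 for 9 of the 10 genes, all except Ddit3, though Pdia4 and Prdx4 were lowest there by less than the scatter between probe sets, and were not lowest there with arrays centred on their median. Over all genes above the floor, that array was the lowest for 35.4%. Against GFP-low monocytes, 7 of the 10 were at least 2-fold lower in granulocytes, where 18.2% of 8503 genes were, and 1, Ddit3, was at least 2-fold higher, where 10.0% were. The median log2 difference of the 10 was -1.32, beside 0.00 over all genes. With arrays centred on the median of expressed genes, every measured granulocyte difference from GFP-low monocytes rose by 0.23. Then 5 of the 10 were at least 2-fold lower, where 13.7% of all genes were and 13.3% were higher; Calr (-0.97) and Xbp1 (-0.77) fell short of the rule and Pdia4 changed sign (0.14). With 1 array in each population there is no replicate check and no test, and in bulk RNA fewer cells of a type and less RNA per cell cannot be told apart. The error that the arrays allow is the scatter between probe sets of a gene. Its SD was 0.35 for this comparison and 0.16 to 0.39 over the 6 pairs of arrays. This SD compares probe sets on the same arrays, so it leaves out variation between animals, sorts and hybridizations. A difference larger than the SD is thus beyond probe set scatter, and is not shown to be beyond variation between samples.

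**Figure D1:**
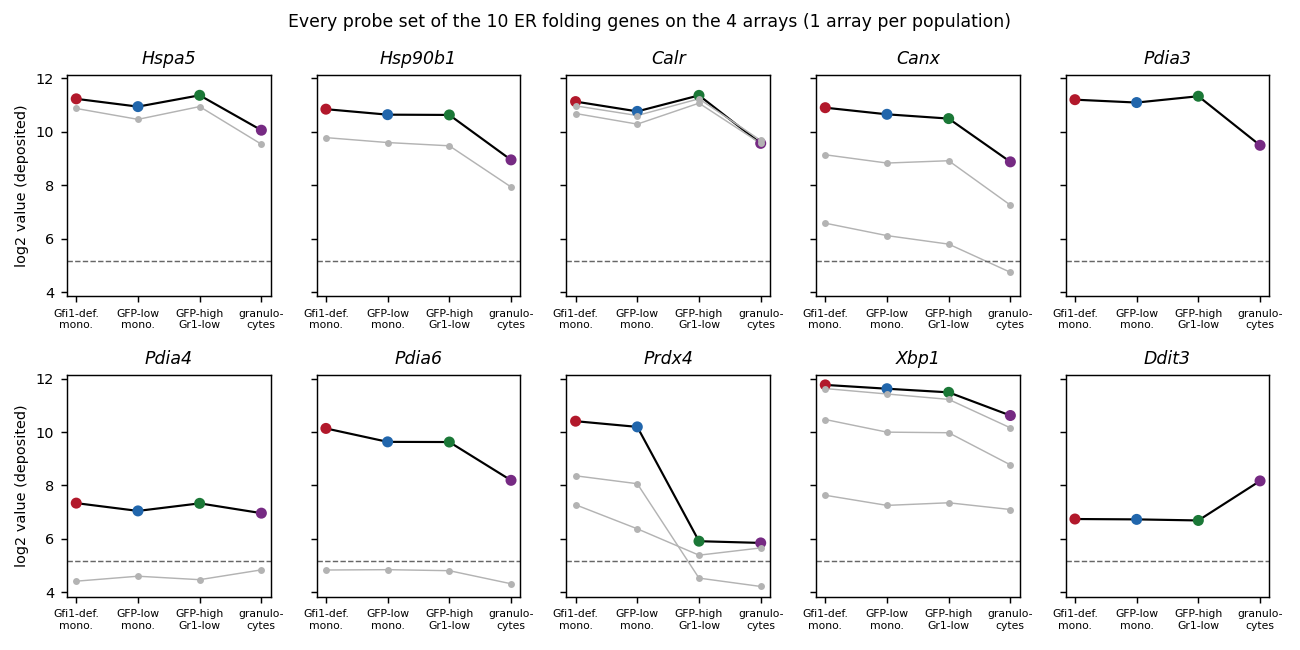
Log2 value (vertical axis) of every probe set of the 10 genes on the 4 arrays (horizontal axis), 1 panel a gene. Coloured points joined by a black line are the probe set with the highest mean, grey points the other probe sets, and the dashed line is the floor at 5.18; granulocytes are lowest in 9 panels, Prdx4 drops on 2 arrays, and Ddit3 is highest in granulocytes.

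Among the chaperones, Hspa5 read 11.23 in Gfi1-deficient, 10.94 in GFP-low and 11.36 in GFP-high cells and 10.06 in granulocytes. Its granulocyte value was 1.84-fold below GFP-low monocytes, under the 2-fold rule, and 2.47-fold below GFP-high cells. Both of its probe sets gave that order of arrays. Hsp90b1 read 10.84, 10.64, 10.63 and 8.95 in the same order of populations (Gfi1-deficient, GFP-low, GFP-high, granulocytes). The 3 Gr1-low arrays lay close together, and granulocytes stood apart by 3.23-fold from GFP-low monocytes. The other Hsp90b1 probe set differed by -1.66 where this one differed by -1.69.

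Calr read 11.13 in Gfi1-deficient, 10.76 in GFP-low and 11.36 in GFP-high cells and 9.56 in granulocytes. Like Hspa5 it was highest in GFP-high cells, 1.51-fold above GFP-low monocytes, and in granulocytes it was 3.47-fold below GFP-high cells. Its 3 probe sets placed the granulocyte difference from GFP-low monocytes between -1.20 and -0.72, so not every probe set reached 2-fold. Canx read 10.90, 10.65, 10.49 and 8.87 in the order Gfi1-deficient, GFP-low, GFP-high, granulocytes. Here the Gfi1-deficient array was highest, and granulocytes were 3.43-fold below GFP-low monocytes and 4.07-fold below Gfi1-deficient monocytes. The membrane-bound calnexin and the soluble calreticulin bind the same sugar, and their genes differed in which Gr1-low array was highest. For Calr the Gfi1-deficient and GFP-high arrays were within the scatter of each other (-0.23).

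Pdia3, the isomerase that works with both lectin chaperones, read 11.20 in Gfi1-deficient, 11.09 in GFP-low and 11.33 in GFP-high cells and 9.49 in granulocytes. The granulocyte array was 3.03-fold below the GFP-low array, and the 3 Gr1-low arrays spanned less than the scatter between probe sets. Pdia6 read 10.13, 9.63, 9.63 and 8.19 in the order Gfi1-deficient, GFP-low, GFP-high, granulocytes. Its granulocyte value was 2.71-fold below GFP-low monocytes, and its other probe set was below the floor on all arrays. Pdia4 read 7.34, 7.05, 7.33 and 6.96 in that order. This isomerase gene was the exception among the chaperones and isomerases, with a granulocyte difference of -0.08 from GFP-low monocytes, well within the scatter. Its other probe set, too, was below the floor throughout.

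Prdx4 encodes the peroxiredoxin of the ER lumen, which uses hydrogen peroxide to drive disulfide formation. It read 10.41 in Gfi1-deficient cells, 10.19 in GFP-low monocytes against 5.92 in GFP-high cells and 5.85 in granulocytes. The Gfi1-deficient and GFP-low arrays were high and the other 2 low, across the Gr1 gate. The 10 listed monocyte marker genes divided the arrays in the same way. Their medians against GFP-low monocytes were -4.76 in GFP-high cells, -4.18 in granulocytes and -0.02 in Gfi1-deficient cells. Prdx4 was the 1 gene of the 10 folding genes at least 2-fold apart between the GFP-high and GFP-low arrays. It was 19.4-fold lower in GFP-high cells and 20.3-fold lower in granulocytes than in GFP-low monocytes, while GFP-high cells and granulocytes differed by 1.05-fold. Of all genes tested, 0.377% had a lower difference between GFP-high and GFP-low arrays.

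The other Prdx4 probe sets were also lower in GFP-high cells and granulocytes than in GFP-low monocytes. One read 8.36 in Gfi1-deficient cells and 8.07 in GFP-low monocytes and was below the floor in GFP-high cells (4.53) and granulocytes (4.22), which gives a log2 difference of -2.89 or beyond for GFP-high against GFP-low cells. The remaining one read 7.28, 6.38, 5.39 and 5.66 in the order Gfi1-deficient, GFP-low, GFP-high, granulocytes. It differed by -0.99 between GFP-high and GFP-low arrays and by -0.72 between granulocytes and GFP-low monocytes, both under the 2-fold rule. Prdx4 is on the X chromosome, and the X-linked Xist read 5.80 on the Gfi1-deficient array against 9.56 to 10.93 on the others. The part of this difference between the arrays in the Prdx4 values was not tested.

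Xbp1 read 11.76 in Gfi1-deficient, 11.62 in GFP-low and 11.48 in GFP-high cells and 10.62 in granulocytes. The granulocyte difference from GFP-low monocytes, -1.00, lay just inside the 2-fold rule, as Hspa5 at -0.88 lay just outside it. The 4 Xbp1 probe sets ranged from -1.27 to -0.15 in that difference. Whether they tell the spliced Xbp1 mRNA, which encodes the active factor, from the unspliced one is not given in the sources used here. Ddit3, which encodes the stress factor CHOP, read 6.74, 6.73 and 6.69 on the 3 Gr1-low arrays and 8.17 in granulocytes. It was the 1 gene of the 10 with its highest value in granulocytes, where 38.3% of all genes had theirs. There it was 2.71-fold above GFP-low monocytes and 2.79-fold above GFP-high cells, on its 1 probe set.

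**Figure D2:**
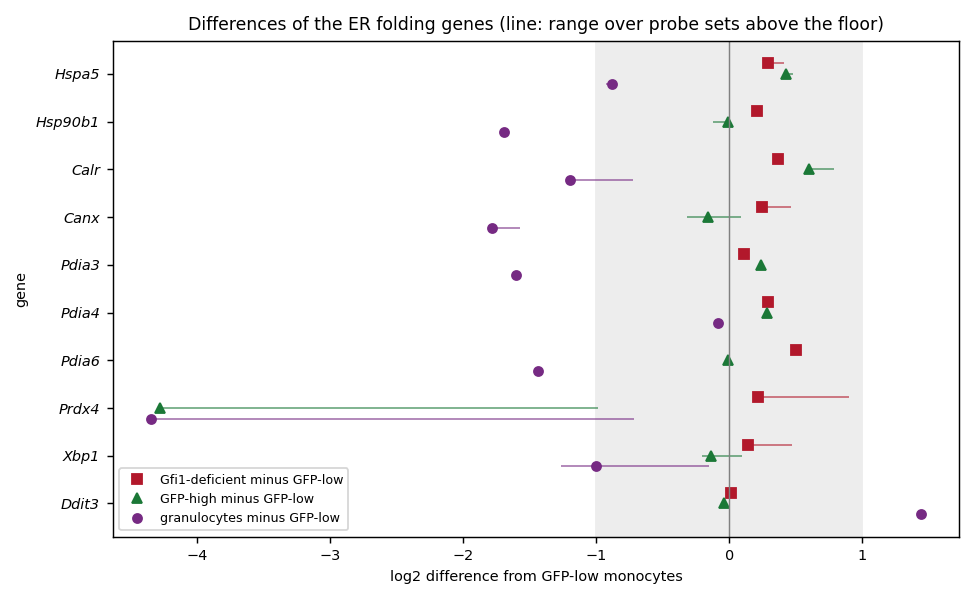
Log2 difference from GFP-low monocytes (horizontal axis) for each of the 10 genes (vertical axis) on the arrays of Gfi1-deficient monocytes (squares), GFP-high cells (triangles) and granulocytes (circles). Points are the probe set with the highest mean, lines the range over probe sets above the floor on both arrays, and the grey band the 2-fold rule; 7 circles lie left of the band and 1, Ddit3, right of it.

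GFP-high cells, labelled monocytes, differed from GFP-low monocytes in the markers of lineage. The 10 listed monocyte genes were all at least 2-fold lower there than in GFP-low monocytes, and 5 of 6 measured genes of primary granules were higher by that rule. Mpo, the myeloperoxidase gene, read 13.66 against 8.08. By the 2-fold rule 0 of the 10 folding genes were higher in GFP-high cells, where 9.03% of 8232 genes were, and 1, Prdx4, was lower, where 9.61% were. With 10 genes these counts are near the shares over all genes. The median was -0.01, beside 0.03 over all genes. Calr (0.60), Hspa5 (0.42), Pdia4 (0.28) and Pdia3 (0.24) were above 0, and Hsp90b1, Canx, Pdia6, Xbp1 and Ddit3 lay between -0.16 and -0.01. The SD between probe sets was 0.27, which Prdx4, Calr, Hspa5 and, barely, Pdia4 exceeded and the other genes did not.

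Between granulocytes and GFP-high cells, the secondary granule gene Ltf, which encodes lactoferrin, read 14.10 and 14.07, while Mmp8 and Mmp9, collagenase and gelatinase genes of the same list, were higher in granulocytes by 2.23 and 2.34. Mpo read 9.36 in granulocytes. In granulocytes 6 of the 10 were at least 2-fold lower than in GFP-high cells, where 16.4% of 8457 genes were, and Ddit3 was higher, where 8.93% were. Pdia3 was 3.57-fold, Calr 3.47-fold, Hsp90b1 3.21-fold, Canx 3.07-fold, Pdia6 2.70-fold and Hspa5 2.47-fold lower. Xbp1 at -0.87, Pdia4 at -0.37 and Prdx4 at -0.06 stayed under the 2-fold rule. The median of the 10 was -1.37, beside 0.03 over all genes. With arrays centred, again 6 of the 10 were at least 2-fold lower, where 11.7% of all genes were and 12.6% were higher. These comparisons share arrays, so their differences are not independent of each other.

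Gfi1-deficient and GFP-low monocytes read close together in the folding genes, as they did over all genes by the 2-fold rule. None of the 10 was 2-fold apart, where 0.637% of 8010 genes were higher and 1.27% lower by that rule. With 10 genes that count is near these shares. All 10 were higher in Gfi1-deficient cells by some amount, where 54.8% of all genes were, with a median of 0.23 beside 0.03 over all genes. This was not particular to the 10. In lists described below, 26 of 28 other folding genes and 21 of 22 genes of ER-to-Golgi transport were higher too. So were 28 of 29 genes of protein entry and sugar attachment, 13 of 18 of degradation and 4 of 12 stress sensors and factors. The differences of the 10 ran from 0.01 for Ddit3 to 0.50 for Pdia6, with Calr at 0.37, Hspa5 and Pdia4 at 0.29, Canx at 0.25, Prdx4 at 0.21, Hsp90b1 at 0.21, Xbp1 at 0.14 and Pdia3 at 0.11. Those of Xbp1, Pdia3 and Ddit3 were below the SD between probe sets of 0.16. On the same array 5 of 6 genes of primary granules exceeded GFP-low monocytes by 2-fold or more (Mpo 11.42 against 8.08), as did 3 of 3 measured eosinophil genes, Prg2 reading 10.54 against 7.53. Genes of secondary granules went the other way there, with 5 of 8 at least 2-fold lower than in GFP-low monocytes and 0 higher. The lactoferrin gene Ltf read 7.36 against 12.18. The part of cells expressing these granule genes in the folding gene values was not tested.

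Against GFP-high cells, Gfi1-deficient monocytes were at least 2-fold higher for 1 of the 10, Prdx4 (22.5-fold), where 9.53% of 8195 genes were, and lower for 0, where 7.81% were. Pdia6 (0.51) and Canx (0.41) came next, and Calr was lowest (-0.23). Between granulocytes and Gfi1-deficient monocytes, 8 of the 10 were at least 2-fold lower in granulocytes, where 20.3% of 8520 genes were, and Ddit3 was higher, where 11.2% were. In that pair Prdx4 was 23.5-fold, Canx 4.07-fold, Pdia6 3.84-fold and Hsp90b1 3.72-fold lower. The median of -1.64 was the lowest of the 6 pairs of arrays. With arrays centred, 6 of the 10 were lower by that rule in this pair, where 15.8% of all genes were and 15.9% were higher.

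Plasma cells hold much ER and could enter a bone marrow sort. Of 7 measured plasma cell markers, 3 to 5 were above the floor on each array. Their summed linear level was 2103 on the GFP-low array, 673 in granulocytes, 398 in Gfi1-deficient and 366 in GFP-high cells, led by Igha, an immunoglobulin heavy chain gene, at 10.61, 8.42, 7.33 and 7.66. Tnfrsf17, which marks plasma cells, was below the floor on all arrays. The GFP-low array had the highest value of 0 of the 10 folding genes, where it had that of 14.0% of all genes. With 10 genes that count is near that share. B cell markers above the floor numbered 4 of 9 on each Gr1-low array and 6 of 9 in granulocytes. Eosinophil markers summed to 6475 in GFP-high and 1935 in Gfi1-deficient cells against 290 in GFP-low monocytes and 264 in granulocytes. Hspa5, Calr and Pdia3 were highest in GFP-high cells and 6 of the 10 in Gfi1-deficient cells. The shares of all genes with their highest value on those arrays are not given here. Whether these counts are particular to the 10 therefore cannot be judged. The part of plasma cells, B cells and eosinophils in the folding gene values was not tested.

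The markers of other cell types were read in the same way. T and NK cell markers were above the floor for 1 to 3 of 6, plasmacytoid dendritic cell markers for 3 or 4 of 5 and basophil and mast cell markers for 3 or 4 of 5. Erythroid and megakaryocyte markers were above it for 4 of 5 each on all arrays, and the summed erythroid level was highest in granulocytes, at 1267 against 436 to 849 elsewhere. Progenitor markers summed to 2435 in GFP-high cells, led there by Myb, against 548 to 969 elsewhere, and mature granulocyte markers to 60612 in granulocytes against 16063 to 43735. The part of any of these in the folding gene values was not tested.

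The wider folding machinery was read from lists of other ER genes. Of 28 other folding genes measured in granulocytes and GFP-low monocytes, 15 were at least 2-fold lower in granulocytes, where 18.2% of all genes were, and 2 higher, where 10.0% were, with a median of -1.03. With arrays centred, 9 of 29 were lower (median -0.79), where 13.7% of all genes were. P4hb, the most familiar disulfide isomerase gene, read 11.75 in Gfi1-deficient, 11.25 in GFP-low and 11.77 in GFP-high cells and 9.79 in granulocytes, a profile like those of Calr and Hspa5. The largest granulocyte differences were those of Txndc5, a thioredoxin-domain isomerase gene (-2.25), Fkbp2, a prolyl isomerase gene (-2.19), and Sdf2l1, which encodes a cofactor of the ER Hsp70 (-2.17). In GFP-high cells 2 of 29 were at least 2-fold higher and 2 lower, near the 9.03% and 9.61% of all genes, with a median of 0.10.

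Genes that bring proteins into the ER and attach sugars lay below GFP-low monocytes in granulocytes by 2-fold or more in 10 of 29 cases, where 18.2% of all genes did, and 0 were higher by that rule (median -0.88). Rpn2, Ddost and Dad1, all subunits of the oligosaccharyltransferase, led with -2.51, -2.27 and -2.03. Of 22 genes of ER-to-Golgi transport, 5 were lower by 2-fold or more (median -0.39), near the 18.2% of all genes, among them the cargo receptor gene Lman1 at -1.97 and the coat gene Sec24d at -1.51 or beyond. Kdelr2, whose product returns chaperones to the ER, was at -1.32. Genes of ER-associated degradation differed little, with 0 of 18 at least 2-fold lower and 1 higher, Ngly1 at 1.03 (median -0.12, or 0.11 with arrays centred and 0.02 after quantile normalization). Sec24d was also the 1 gene of these lists that exceeded GFP-low monocytes by 2-fold or more on the Gfi1-deficient array, at 1.06.

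**Figure D3:**
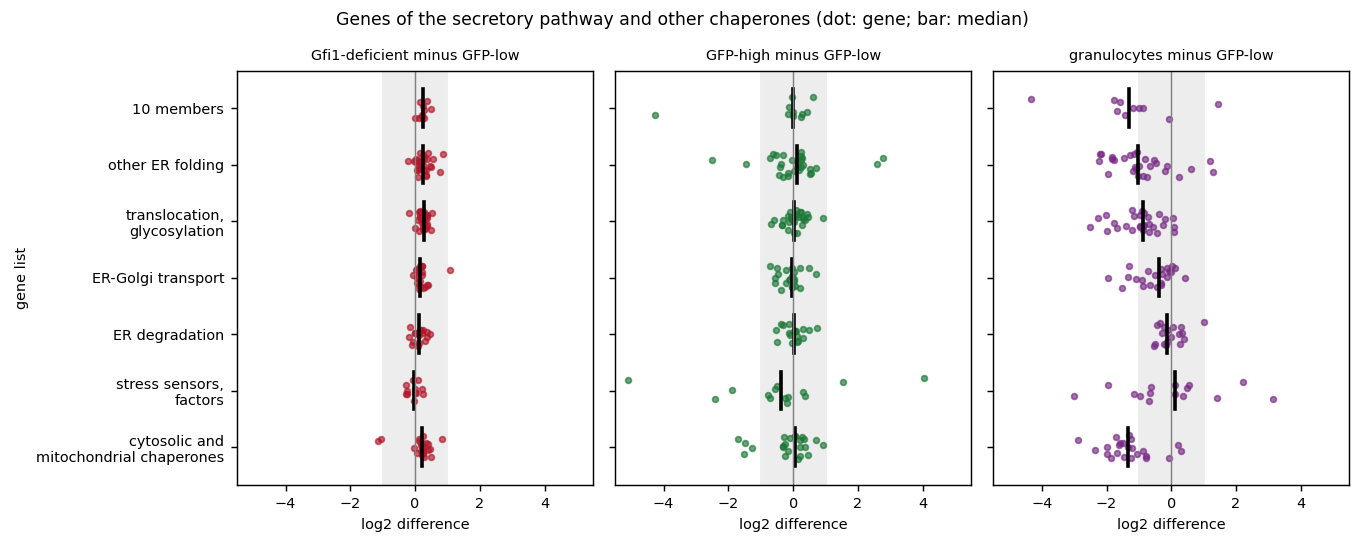
Log2 difference from GFP-low monocytes (horizontal axis) of each measured gene (dots) in 7 gene lists (vertical axis), with the list median as a black bar and the 2-fold rule as a grey band. The panels are Gfi1-deficient monocytes, GFP-high cells and granulocytes; in granulocytes the medians are -1.32 for the 10 genes, -1.03 for other folding genes, -0.12 for degradation and -1.33 for chaperones outside the ER.

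The lower level in granulocytes was not limited to the ER. Of 23 chaperone genes of the cytosol and mitochondria, 17 were lower in granulocytes than in GFP-low monocytes by 2-fold or more, where 18.2% of all genes were, and 0 were higher, with a median of -1.33. Hspe1 and Hspa9, of the mitochondrial folding machinery, were at -2.89 and -2.34, and Hspa1b, a heat-inducible Hsp70 gene, was at -2.00. Hspa1b and Hspa1a were also at least 2-fold lower in Gfi1-deficient monocytes (-1.15 and -1.06), against the direction of their list. There 20 of the 23 were higher than in GFP-low monocytes by some amount, where 54.8% of all genes were, and 3 lower. The median of the list in that pair was 0.21, beside 0.23 for the 10 ER genes. In GFP-high cells the median of the list was 0.04, with 4 of 23 at least 2-fold lower, where 9.61% of all genes were, among them Hspa1a (-1.70 or beyond), Hspa1b (-1.51) and Hspe1 (-1.50).

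Prdx4 was set beside the peroxiredoxins outside the ER. Prdx2 of the cytosol read 10.46 in Gfi1-deficient cells, 10.03 in GFP-low monocytes against 8.32 in GFP-high cells and 8.29 in granulocytes. That is the same division of arrays, with a difference of -1.71 in GFP-high cells where Prdx4 had -4.28. Mitochondrial Prdx3 read 9.52, 9.24, 8.63 and 7.68 in the order Gfi1-deficient, GFP-low, GFP-high, granulocytes. The other listed peroxiredoxins, Prdx1, Prdx5 and Prdx6, are not analysed here.

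A few other folding genes divided the arrays as Prdx4 and the monocyte markers did. Txndc5 read 9.43 in Gfi1-deficient cells, 8.96 in GFP-low monocytes against 6.44 in GFP-high cells and 6.71 in granulocytes. Erp29, which encodes a thioredoxin-like ER protein and was picked after its values were seen, read 10.52 and 10.48 against 9.02 and 8.66. In the opposite direction, Ero1a, the oxidase that feeds electrons from the isomerases to oxygen and makes hydrogen peroxide, read 8.51 in Gfi1-deficient cells, 8.40 in GFP-low monocytes, 11.00 in GFP-high cells and 9.70 in granulocytes. Rcn1, which encodes a calcium-binding protein of the ER, read 7.95 in GFP-high cells and 6.37 in granulocytes and lay under the floor elsewhere. The log2 difference between GFP-high cells and GFP-low monocytes was thus 2.60 for Ero1a and -4.28 for Prdx4, both of which serve oxidative folding. The other ER oxidase gene, Ero1b, differed by -0.53.

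Stress sensors and factors went both ways. In granulocytes 3 of 15 were at least 2-fold higher than in GFP-low monocytes and 3 lower (median 0.13), where 10.0% and 18.2% of all genes were. In GFP-high cells 2 of 14 were higher and 3 lower (median -0.37), where 9.03% and 9.61% of all genes were. Atf6, the chaperone-inducing sensor, chosen after its values were seen, read 8.13 in Gfi1-deficient cells, 8.40 in GFP-low monocytes against 6.50 in GFP-high cells and 6.46 in granulocytes. The stress factor gene Atf3 read 10.81, 11.09, 6.00 and 8.07 in the order Gfi1-deficient, GFP-low, GFP-high, granulocytes, and Ppp1r15a, whose product restores translation after stress, 8.84, 9.09, 6.67 and 8.13. Atf4, which encodes the factor above Ddit3, stayed between 10.45 and 10.74.

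Other genes of this list were high in granulocytes as Ddit3 was, while Atf3 (-3.02) and Ppp1r15a (-0.97) were below GFP-low monocytes there. Asns, the asparagine synthetase gene, read 9.20 in GFP-high cells and 8.32 in granulocytes and was below the floor in Gfi1-deficient and GFP-low monocytes, a log2 difference of 4.03 or more for GFP-high against GFP-low cells. Chac1, a glutathione-degrading enzyme gene, read 6.72 and 7.38 on those arrays and likewise lay under the floor elsewhere. Sesn2, a stress-induced gene picked after its values were seen, read 8.12 in granulocytes and 6.53 to 6.69 on the Gr1-low arrays, the pattern of Ddit3. Asns and Chac1 were thus high on both arrays where Prdx4 was low, and Ddit3 and Sesn2 on the granulocyte array alone.

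**Figure D4:**
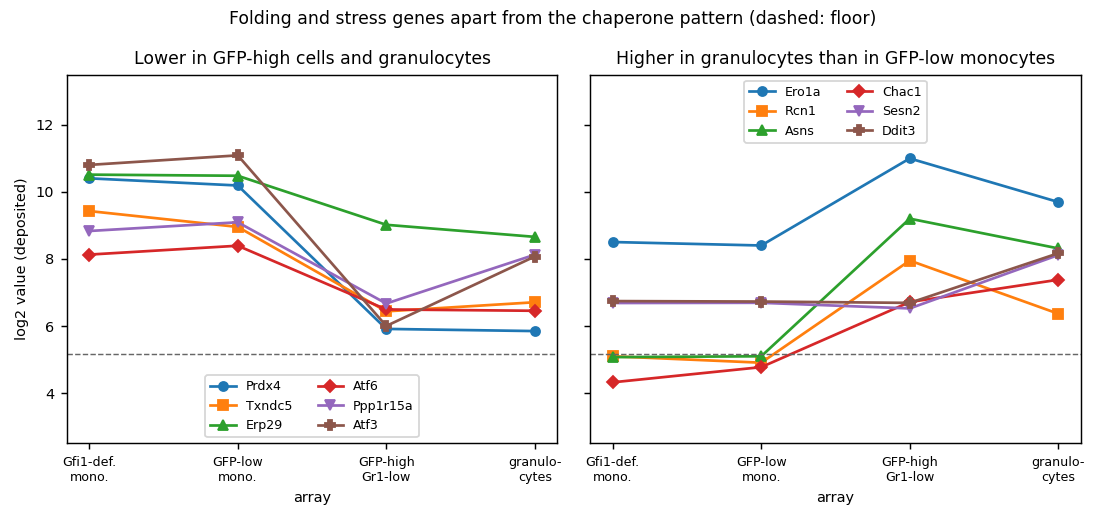
Log2 values (vertical axis) on the 4 arrays (horizontal axis) of 6 genes lower in GFP-high cells and granulocytes than in GFP-low monocytes (left) and 6 genes higher in granulocytes (right), with the floor at 5.18 as a dashed line. Prdx4 goes from 10.19 in GFP-low monocytes to 5.92 in GFP-high cells, while Ero1a goes from 8.40 to 11.00 and Ddit3 stays at 6.69 to 6.74 until granulocytes, at 8.17.

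Genes with and without the promoter element overlapped in their granulocyte difference. The 5 genes with the element lay between -1.78 and -0.88 against GFP-low monocytes, and the 5 without it between -4.34 and 1.44. Of 35 genes with the element in any window, 17 were on the arrays. Of these 17, 5 were members of the 10 and 9 others were measured, of which 2 were at least 2-fold lower in granulocytes, not far from the 18.2% of all genes. They were Dnajc3, which encodes a co-chaperone (-1.17), and Ero1b, an oxidase gene (-1.05). Creld2, an ER stress-induced gene, was at -0.75 and Derl3, of ER degradation, at 0.06.

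The mean profile of the 10 genes, centred over the arrays, was 0.57 in Gfi1-deficient, 0.33 in GFP-low and 0.02 in GFP-high cells and -0.93 in granulocytes. Without Prdx4 it was 0.38, 0.14, 0.27 and -0.78 in that order, so the order of GFP-low and GFP-high cells rested on Prdx4. The 5 genes closest to the profile of all 10 by root mean square distance over these 4 arrays, among 7215 genes above the floor on all, were Mtres1 (0.011), Pfdn6 (0.014), Nus1 (0.017), Aimp1 (0.028) and Gorasp2 (0.033). Without Prdx4 they were Tmem199 (0.014), Cdpf1 (0.017), Selenof (0.025), Tmem39a (0.026) and Mrpl46 (0.027). The 5 closest to Prdx4 were Olfm1 (0.17), S100a10 (0.17), Calhm2 (0.18), Lrp1 (0.18) and Pld4 (0.26). With 4 arrays, many genes share a profile, and the nearest ones are a description.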

How the data were processed

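Per the labels' protocols, TRIzol extracts were labelled with biotin as cRNA from 6 µg of total RNA, following Affymetrix. The authors deposited log2 values for 22690 probe sets on 4 arrays. The log2 scale was inferred from their range (2.70 to 14.50), and how background and arrays were adjusted is not given in the sources used here. Array medians were 5.91 to 6.01, so no further scaling was applied. Arrays have no read depth, and 1 array a population limits the precision. Probe sets were named from the platform annotation through gene identifiers (20364 of 20393 with 1 gene matched), and the probe set with the highest mean stands for a gene. Values below the floor were raised to it, so that a difference reaching it is a bound ("or beyond", "at least"). The SD between probe sets compares the 2 brightest of a gene above the floor on both arrays, over 2658 to 2847 genes, divided by the square root of 2. Genes are counted at 2-fold, with no test. Promoter windows and symbols came from RefSeq tables of GRCm38.p6. The scripts were tested on simulated data. Python 3.11.15, pandas 2.3.3 and numpy 2.4.6 were used.

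The 10 genes and the lists were chosen with earlier results of these data known. The text names the 10, the 3 largest 2-fold differences of each list against GFP-low monocytes, the brightest markers and the 5 nearest profiles. Other genes named serve as context for a result. Other marker lists (T and NK, plasmacytoid dendritic, basophil and mast, erythroid, megakaryocyte, progenitor and mature granulocyte cells) were read in the same way.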

Additional observations from a re-analysis of the deposited data

How the results depend on the processing

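With no replicates, a value was compared with the scatter between probe sets. Of 90 values for the medians and counts of the 10 genes under alternatives, 86 stayed within the scatter or, for counts, within 1.5-fold of the reported count, 4 changed by more and 0 reversed. With the mean of a gene's probe sets in place of the brightest, the count at least 2-fold apart between granulocytes and GFP-low monocytes was 5 and not 8. The share of all genes under that setting is not given here. Calr (-0.95) and Xbp1 (-0.91), whose probe sets above the floor differ, and Pdia6 (-0.98), with a probe set below it, fell short of 2-fold. At 1.5-fold, Calr (0.60) was added to Prdx4 between GFP-high and GFP-low arrays, and 16.8% of all genes had a higher difference than Calr. Without X-linked Prdx4, an alternative (as for the mean profile) chosen after seeing the data, the counts were 0 for GFP-high against GFP-low and 0 for Gfi1-deficient against GFP-high cells. For single genes, 340 of 356 values moved by less than the scatter, 16 by more, and 0 of those 2-fold apart reversed. With the floor at the 60th percentile, Prdx4 was at -3.39 in GFP-high cells, and with the mean of probe sets at -2.93. Centring arrays on the median of expressed genes shifted each measured granulocyte difference by 0.23 against GFP-low monocytes, and the median over all genes from 0.00 to 0.19. The count of the 10 at least 2-fold apart was then 6 and not 8, without Calr and Xbp1, and the share of higher among all 2-fold calls was 49.2% and not 35.5%. No paired analysis was possible because each population has 1 array. Signal near the floor limits Prdx4, whose low arrays lie less than 1 above it.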
